A study of Tursiops truncatus with 17 samples.

Results

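Genes that mark oligodendrocyte precursor cells and the oligodendrocyte lineage were examined in the cerebral cortex of bottlenose dolphins (Tursiops truncatus). The set was PDGFRA, CSPG4, SOX10, OLIG1, OLIG2 and GPR17, matched by gene symbol among the 21265 genes of the deposited tables. PDGFRA, SOX10 and GPR17 each matched 1 row, and all 3 passed the filter on low reads. CSPG4, OLIG1 and OLIG2 matched no row by symbol and were not analysed here, so what follows covers 3 of the 6 genes. The libraries came from 9 dolphins sampled in a bloom season and 8 sampled in a non-bloom season, 1 library from each animal, all labelled wild type (WT) and all from frozen archived necropsy cortex. Bloom is the submitters' word for the season, and the labels give neither an exposure measured in each animal nor its sex, age, date of collection or sequencing batch. A batch that followed the season therefore cannot be told apart from it. The question posed by the design is which cortical transcripts differ between the seasons.

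Oligodendrocyte precursor cells are the dividing glia of the cortex from which myelinating oligodendrocytes arise. PDGFRA is the receptor through which platelet-derived growth factor keeps these cells proliferating and alive, and it is switched off as they differentiate. GPR17, a G protein-coupled receptor, marks a transient committed stage that, in rodents, lies between the precursor and the myelinating cell. SOX10 is a transcription factor carried through the whole lineage, from precursor to mature cell, where it drives myelin genes. PDGFRA is also expressed by fibroblasts of the vessel wall and meninges, and SOX10 by Schwann cells. In bulk tissue fewer cells of a type and less RNA per cell cannot be told apart.

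Values are the deposited ones, CPM (reads relative to library size) with scaled library sizes. They gave back whole reads, from 7680050 to 15635292 per library. Bloom 5, bloom 6 and bloom 9 stood apart from the other libraries, since transcripts of the mitochondrial genome took 57.0%, 33.5% and 77.2% of their reads, against 1.47% to 19.5% in the other bloom libraries and 9.68% to 22.1% in the non-bloom libraries. They held between 1753299 and 6719605 reads from all other genes. Results are therefore also given without these 3 libraries, and dolphins are numbered within their season in order of deposition.

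PDGFRA was lower in the bloom season. Its value in bloom dolphins had a lowest level of 0.363, a median of 7.86 and a highest level of 26.4, against 12.8, 20.01 and 41.2 in non-bloom dolphins. Of the 9 bloom libraries 7 lay below the lowest non-bloom library. Only bloom 2, at 13.0, and bloom 8, at 26.4, lay within the non-bloom range, so the groups overlapped through those 2 animals. The means were 8.41 ± 8.12 in bloom dolphins (SD, n = 9) and 24.5 ± 12.4 in non-bloom dolphins (SD, n = 8), a ratio of 0.344. On the log2(value + 1) scale the change was -1.84 (SE 0.52, adjusted p = 0.0419, limma with Benjamini-Hochberg adjustment over 13548 genes). The size of the change depended on the scale and method. Adding 0.1 in place of 1 gave -2.23, while the recovered reads gave smaller changes, -1.50 by edgeR and -1.54 by DESeq2. An exact two-sided permutation test of the difference in mean log2(value + 1) over 24310 splits gave p = 0.00452, not adjusted. PDGFRA was the only one of the 3 genes to pass, and over all genes tested 9.16% passed, 4.47% higher and 4.69% lower in the bloom season.

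The PDGFRA call lay close to the threshold. edgeR's quasi-likelihood test on the recovered reads gave a log2 change of -1.50 with an adjusted p of 0.0784, in a fit where 8.29% of genes passed, 6.10% higher and 2.19% lower. The call was lost in 11 of the 17 fits that left out 1 library, those without bloom 2, 5, 6 or 7 or non-bloom 1, 2, 3, 5, 6, 7 or 8, where the adjusted p ran from 0.05003 to 0.0771 and the log2 change from -1.99 to -1.57. Without bloom 5, 6 and 9 the change was -1.30 (SE 0.49, adjusted p = 0.136), and the exact permutation test gave p = 0.0246. In that comparison the bloom mean was 11.4 ± 8.51 (SD, n = 6), and 2.36% of genes passed, 1.70% higher and 0.665% lower.

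The lowest PDGFRA values belonged to single animals and rested on few reads. Bloom 6 had 3 reads, a value of 0.363 with a 95% exact Poisson interval of 0.0750 to 1.06, and bloom 4 had 8 reads, a value of 0.537 with an interval of 0.232 to 1.06. The intervals cover counting error only. They treat reads as independent, and since the reads were copied by PCR they may be too narrow. Both upper bounds lie far below the lowest non-bloom value of 12.8, which rested on 242 reads. The 2 animals differed in the markers of other cells. Bloom 6 was among the libraries rich in mitochondrial reads and had a summed level of 3726 over 11 pan-neuronal markers. Bloom 4 had 4.63% mitochondrial reads and the highest pan-neuronal sum of the bloom libraries, 10862, within the non-bloom range of 8853 to 14505. The part of these features in the PDGFRA values was not tested.

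**Figure D1:**
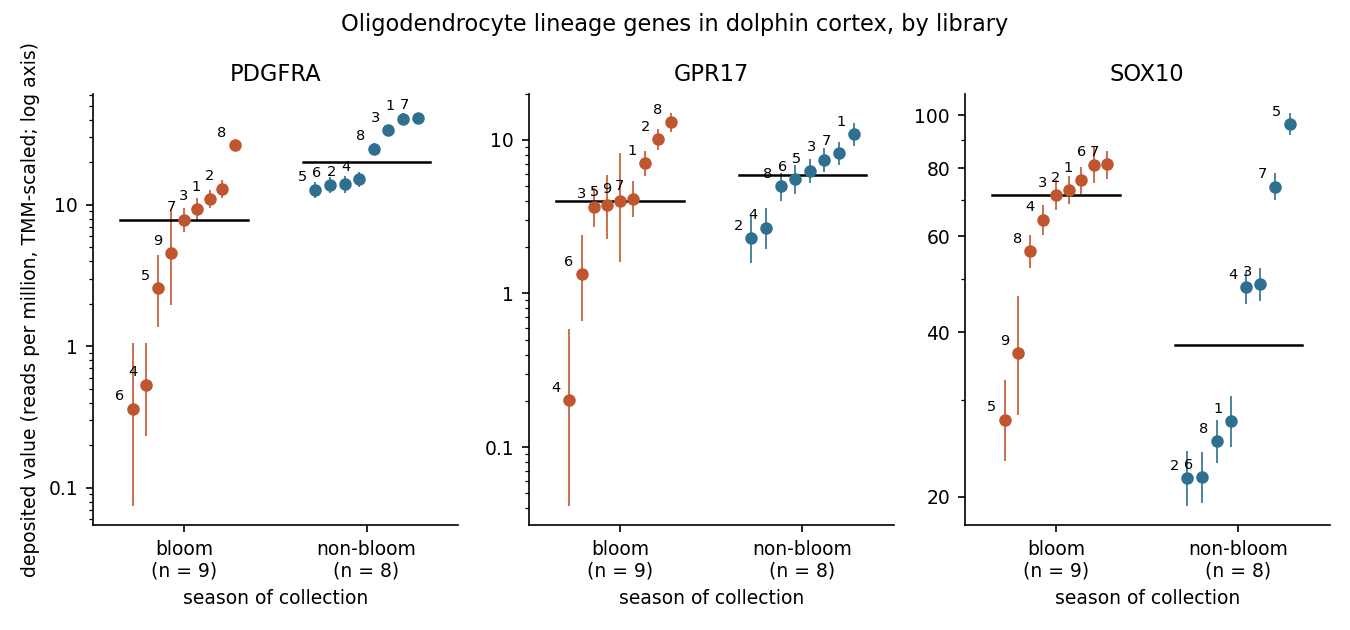
Deposited values (scaled CPM, log axis) of PDGFRA, GPR17 and SOX10 in each library, numbered within season; bars through points are 95% exact Poisson intervals and black lines are group medians. For PDGFRA 7 of the 9 bloom libraries lie below every non-bloom library, while GPR17 and SOX10 overlap widely.

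GPR17 showed no seasonal difference that passed the test. Its value in bloom dolphins was lowest at 0.201, had a median of 4.00 and was highest at 13.0, against 2.30, 5.91 and 10.9 in non-bloom dolphins. Bloom 4 and bloom 6 lay below every non-bloom library and bloom 8 above them all, so the bloom group spread on both sides of the other. The means were 5.25 ± 4.10 in bloom dolphins (SD, n = 9) and 6.04 ± 2.85 in non-bloom dolphins (SD, n = 8). The log2 change was -0.37 (SE 0.40, adjusted p = 0.512, limma), and the exact permutation test gave p = 0.417. The lowest value, in bloom 4, rested on 3 reads. Leaving that animal out moved the log2 change to -0.12 (SE 0.34, adjusted p = 0.817).

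SOX10 had a higher median in the bloom season, without passing the test over all genes. Its lowest, median and highest values were 27.7, 71.4 and 81.2 in bloom dolphins, against 21.6, 37.9 and 96.3 in non-bloom dolphins. Of the 9 bloom libraries 7 lay above the non-bloom median, and the groups overlapped over most of their range. The means were 63.1 ± 19.3 in bloom dolphins (SD, n = 9) and 45.5 ± 27.5 in non-bloom dolphins (SD, n = 8). The log2 change was 0.59 (SE 0.30, adjusted p = 0.167, limma), and the exact permutation test gave p = 0.0952. Bloom 5 and bloom 9, both rich in mitochondrial reads, had the lowest bloom values, 27.7 and 36.6. Without bloom 5, 6 and 9 the bloom mean was 70.3 ± 8.84 (SD, n = 6), with every value between 56.3 and 81.2, and the log2 change was 0.82 (SE 0.30, adjusted p = 0.129; exact permutation p = 0.0383). SOX10 passed with limma-voom and quality weights alone (log2 change 1.05, adjusted p = 0.0109). In that fit 4123 of the 13548 genes tested passed, 2082 higher and 2041 lower.

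The changes of SOX10 and PDGFRA were then set against the level of myelin genes. With the mean level of 15 mature oligodendrocyte markers as a covariate the log2 change of SOX10 was 0.06 (SE 0.24, adjusted p = 0.874, limma), and that of PDGFRA was -1.56 (SE 0.59, adjusted p = 0.0705, limma). In that fit 1935 of the 13548 genes tested passed, 755 higher and 1180 lower. The covariate was itself higher in the bloom season (correlation 0.48), so the fit cannot fully separate it from season. Reads of SOX10 per read of MOG, a glycoprotein of the myelin surface chosen for this ratio after its values were seen, ran from 0.337 to 0.735 in bloom libraries with a median of 0.531. In non-bloom libraries they ran from 0.261 to 0.843 with a median of 0.664. The bloom range lay inside the non-bloom one. PDGFRA reads per SOX10 read, in contrast, ran from 0.00448 to 0.469 in bloom libraries (median 0.125) and from 0.133 to 1.48 in non-bloom libraries (median 0.640). Below all non-bloom libraries lay 6 of the 9 bloom libraries, but bloom 3, at 0.1314, was close to the lowest non-bloom ratio of 0.1325. The 95% exact intervals of bloom 3 (0.108 to 0.158), bloom 5 (0.0486 to 0.165) and bloom 9 (0.0518 to 0.261) reached above that ratio. Bloom 5 and bloom 9 had 13 and 8 PDGFRA reads. Neither the SOX10 per MOG nor the PDGFRA per SOX10 ratio was tested. A ratio of reads within 1 library does not depend on how libraries were scaled, and it is not a ratio of transcript numbers, because read counts also follow transcript length.

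PDGFRA and GPR17 varied together from animal to animal. Among bloom dolphins Pearson's r of their log2 values was 0.92 (exact permutation p = 0.000317, adjusted p = 0.00285 over 9 relations) and Spearman's rho was 0.88 (exact p = 0.00308, adjusted p = 0.0277, n = 9). Without bloom 4 and bloom 6, the animals farthest from the median in PDGFRA, r was 0.84. Among non-bloom dolphins r was 0.73 (exact p = 0.0432, adjusted p = 0.130) and rho was 0.60 (exact p = 0.132, adjusted p = 0.385, n = 8), and r was 0.48 without non-bloom 1 and 7. The relation in the non-bloom season did not hold after adjustment and rested in part on those 2 animals. In the 6 bloom animals other than 5, 6 and 9 r was 0.97 (exact p = 0.00278, adjusted p = 0.0125) and rho 0.94 (exact p = 0.0167, adjusted p = 0.075, n = 6). No such relation passed for SOX10 and PDGFRA (r = 0.11 in bloom, exact p = 0.796, adjusted p = 0.911, and r = 0.10 in non-bloom dolphins, exact p = 0.818, adjusted p = 0.911). Spearman's rho for that pair was 0.02 in bloom (exact p = 0.982) and 0.19 in non-bloom dolphins (exact p = 0.665), each with an adjusted p of 0.982. Without bloom 4 and 6 the r of PDGFRA and SOX10 in bloom dolphins was 0.66. The r of that pair in non-bloom dolphins came to -0.04 once non-bloom 1 and 7 were left out. For SOX10 and GPR17 r was -0.04 in bloom dolphins (exact p = 0.911, adjusted p = 0.911) and 0.27 in non-bloom dolphins (exact p = 0.503, adjusted p = 0.911), with rho of 0.03 (exact p = 0.948, adjusted p = 0.982) and 0.55 (exact p = 0.171, adjusted p = 0.385). That r was -0.21 without bloom 5 and 9 and 0.05 without non-bloom 5 and 7.

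The balance of PDGFRA to GPR17 differed between the seasons as a description. Each library held 0.273 to 2.67 PDGFRA reads per GPR17 read in the bloom season, with a median of 1.56, against 2.03 to 6.06 with a median of 4.76 in the non-bloom season. Of the 9 bloom libraries 6 lay below the lowest non-bloom library, and the other three, bloom 3, 4 and 8, had ratios of 2.56, 2.67 and 2.04. Bloom 4, with 8 PDGFRA and 3 GPR17 reads, had a 95% exact interval of 0.640 to 15.6. Of the 6 libraries below the lowest non-bloom ratio of 2.03, bloom 7 (1.36 to 2.66) and bloom 9 (0.362 to 3.70, from 8 and 7 reads) had intervals that reached above it. Without bloom 5, 6 and 9 the bloom range was 1.29 to 2.67. This ratio was formed after the values were seen and was not tested.

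**Figure D2:**
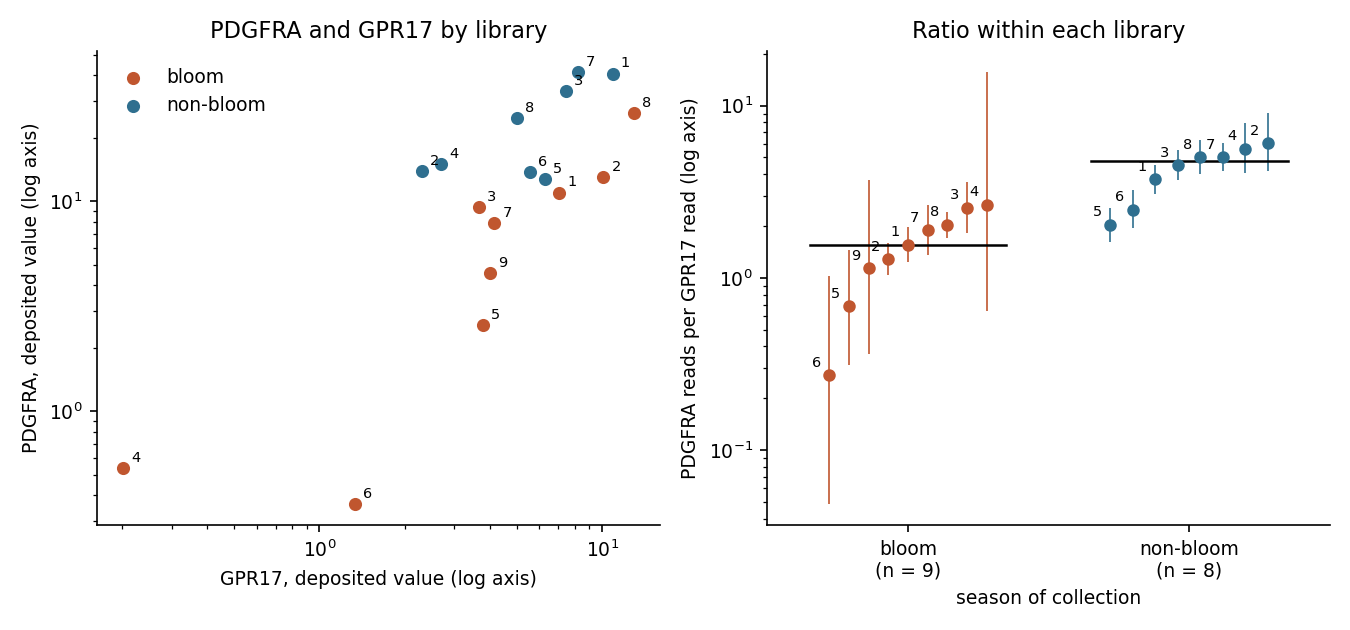
Left, PDGFRA against GPR17 in each library (deposited values, log axes); right, PDGFRA reads per GPR17 read in each library with 95% exact binomial intervals and group medians as black lines (log axis). Bloom libraries lie lower in PDGFRA reads per GPR17 read, with medians of 1.56 in bloom and 4.76 in non-bloom libraries.

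Genes whose pattern over the 14 libraries other than bloom 5, 6 and 9 was most like that of each lineage gene were ranked by Spearman's rho among 12382 genes, as a description. Both seasons were pooled, so a seasonal difference present in both genes enters the rho. For PDGFRA they were TIPRL, a regulator of protein phosphatases (rho 0.87, 0.90 over all 17 libraries), PRELID3B, a mitochondrial lipid transfer protein (0.86 and 0.87), and ZNF207, a zinc finger protein (0.86 and 0.90). For GPR17 they were MYC, a transcription factor of growth (0.89, but 0.45 over 17 libraries), VCAN, the proteoglycan versican made by precursor cells (0.85 and 0.86), and ADAMTS2, a procollagen protease (0.82 and 0.79). For SOX10 they were RFFL, a ubiquitin ligase (0.96 and 0.92), LIPE, the hormone-sensitive lipase (0.93 and 0.87), and SEMA6A, a semaphorin found in oligodendrocytes (0.93 and 0.88). Over the same 14 libraries the median rho of SOX10 with 15 mature oligodendrocyte genes was 0.68, against -0.06 with all genes. For PDGFRA it was -0.64 with those genes and 0.46 with 18 other precursor markers, against -0.03 with all genes. For GPR17 the medians were -0.08 and 0.30, against -0.02 with all genes. Lists of other cells reached like values. SOX10 had a median rho of 0.68 with lineage factors, 0.60 with endothelial, 0.57 with pericyte and 0.53 with astrocyte markers. PDGFRA had one of 0.37 with microglia markers (0.60 over 17 libraries, against 0.44 with precursor markers) and of 0.20 with pan-neuronal markers (0.47 over 17 libraries). GPR17 had one of 0.30 with fibroblast and 0.29 with microglia markers. No test set the lists apart.

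Other markers of precursor cells included few that passed. The counts of this and the following lists stand beside 4.47% of all genes higher and 4.69% lower, and with so few genes called in each no list was set apart by a test. Of 18 tested 2 fell, 0 rose, and the median log2 change was -0.28, against -0.0034 over all genes. Without bloom 5, 6 and 9 the median was -0.087, against 0.0115 over all genes. TNR, the matrix glycoprotein tenascin-R, was at 1.82, 17.2 and 42.7 (lowest, median, highest) in bloom dolphins and at 17.4, 40.1 and 66.8 in non-bloom dolphins (log2 change -1.47, SE 0.44, adjusted p = 0.0458, limma). SEMA5A, a semaphorin, was at 6.77, 22.8 and 59.6 in bloom and at 32.2, 48.7 and 76.3 in non-bloom dolphins (log2 change -1.11, SE 0.31, adjusted p = 0.0428, limma). Each of these calls was lost in 13 of the 17 fits that left out 1 library, by edgeR (adjusted p = 0.0626 for TNR and 0.0589 for SEMA5A), and without bloom 5, 6 and 9 (0.103 and 0.127). Neurons and other glia also express some of these genes. KCND2, a potassium channel of neurons as well as precursors, had a log2 change of -1.61 (adjusted p = 0.0591). VCAN averaged 16.4 ± 7.58 in bloom dolphins (SD, n = 9) and 21.4 ± 9.55 in non-bloom dolphins (SD, n = 8), and PTPRZ1, a receptor phosphatase shared with astrocytes, 235 ± 175 and 153 ± 97.2. Both were named after their values were seen, and neither passed (adjusted p = 0.321 for VCAN and 0.372 for PTPRZ1).

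Of 11 tested lineage transcription factors 2 rose, ST18 and NKX2-2, where 4.47% of all genes tested rose, and 0 fell. Positive changes were found in 10, and the list's median log2 change was 0.68, or 0.55 without bloom 5, 6 and 9. ST18, a zinc finger factor of the MYT family, was at 15.4, 20.01 and 33.7 (lowest, median, highest) in bloom dolphins and at 5.34, 9.24 and 19.7 in non-bloom dolphins. Of the 9 bloom libraries 5 lay above the highest non-bloom library. Its log2 change was 1.04 (SE 0.21, adjusted p = 0.0178, limma), it passed in all 17 fits that left out 1 library, and edgeR gave an adjusted p of 0.0200. NKX2-2, a homeobox factor that in rodents represses PDGFRA as precursors differentiate, was at 3.43, 8.16 and 10.7 in bloom dolphins and at 1.22, 3.60 and 6.33 in non-bloom dolphins. All bloom libraries but 1 lay above the non-bloom maximum (log2 change 0.88, SE 0.24, adjusted p = 0.0371, limma; 0.0361 by edgeR). Its call was lost in 10 of 17 fits with 1 library left out. Without bloom 5, 6 and 9 both genes still passed, with log2 changes of 0.85 for ST18 (adjusted p = 0.0426) and 0.93 for NKX2-2 (adjusted p = 0.0451). SOX9, a factor of glial progenitors and astrocytes, had a log2 change of 1.59 (adjusted p = 0.0557).

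Genes of committed precursors and new oligodendrocytes had mostly positive changes, as did several lists of other cells given below. Of 12 tested 2 rose and 0 fell, 11 changes were positive, and the median was 0.50, or 0.40 without bloom 5, 6 and 9. ITPR2, an intracellular calcium channel, was at 23.9, 40.9 and 95.2 (lowest, median, highest) in bloom dolphins and at 15.4, 24.4 and 44.5 in non-bloom dolphins (log2 change 0.94, SE 0.29, adjusted p = 0.0487, limma). RNF122, a ring finger protein, was at 2.28, 6.23 and 18.4 in bloom and at 0.382, 2.27 and 5.77 in non-bloom dolphins (log2 change 1.10, SE 0.34, adjusted p = 0.0498, limma). Each call was lost in 14 of 17 fits with 1 library left out and without bloom 5, 6 and 9, and edgeR called ITPR2 (adjusted p = 0.0415) but not RNF122 (0.0624). BMP4, a secreted signal that turns precursors away from the oligodendrocyte fate, had a log2 change of 0.51 (adjusted p = 0.104).

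Of 16 genes that act on the precursor state, among them Notch, ID and HES genes, 1 fell and 0 rose, with a median of 0.22. ID2, an inhibitor of basic helix-loop-helix factors, was at 42.9, 68.1 and 88.3 (lowest, median, highest) in bloom dolphins and at 69.2, 87.3 and 134 in non-bloom dolphins, a log2 change of -0.57 (SE 0.17, adjusted p = 0.0445, limma; 0.0459 by edgeR). The call was lost in 13 of 17 fits with 1 library left out and without bloom 5, 6 and 9 (adjusted p = 0.118). HES1, a Notch target, had a log2 change of 1.42 (adjusted p = 0.0568 by limma and 0.0339 by edgeR), and ID4 one of 0.97 (adjusted p = 0.107).

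Among the ligands and signalling partners of PDGFRA, 1 of 17 tested genes rose and 0 fell, with a median of 0.32. PDGFC, a ligand of PDGFRA, was at 14.4, 17.4 and 28.5 (lowest, median, highest) in bloom dolphins and at 9.55, 11.5 and 16.7 in non-bloom dolphins, and 5 bloom libraries lay above the non-bloom maximum. Its log2 change was 0.60 (SE 0.15, adjusted p = 0.0323, limma; 0.0309 by edgeR), and the call was lost in 8 of 17 fits with 1 library left out and without bloom 5, 6 and 9 (adjusted p = 0.0759). PDGFA, which encodes the ligand best known to act on precursors, averaged 18.6 ± 5.73 in bloom dolphins (SD, n = 9) and 22.1 ± 2.49 in non-bloom dolphins (SD, n = 8) and did not pass (log2 change -0.28, adjusted p = 0.218). FGFR3 and FGFR2, growth factor receptors of glia, had log2 changes of 1.88 (adjusted p = 0.05004, just over the threshold) and 1.12 (adjusted p = 0.0507). edgeR called FGFR3 (adjusted p = 0.0487) but not FGFR2 (0.0746).

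CSPG4 itself had no row here. A list of other brain proteoglycans and of matrix and binding partners was counted, which gives no measure of CSPG4. Of 10 tested, BCAN rose, TNR and SDCBP fell, and the median was -0.46, or -0.22 without bloom 5, 6 and 9. BCAN, the proteoglycan brevican, which astrocytes also make, was at 67.1, 260 and 859 (lowest, median, highest) in bloom dolphins and at 56.9, 105 and 193 in non-bloom dolphins (log2 change 1.41, SE 0.40, adjusted p = 0.0420, limma; 0.0272 by edgeR). SDCBP, the scaffold protein syntenin that binds the NG2 protein encoded by CSPG4, was at 32.6, 68.4 and 91.9 in bloom and at 79.0, 101 and 121 in non-bloom dolphins (log2 change -0.63, SE 0.19, adjusted p = 0.0479, limma; 0.0575 by edgeR). The calls were lost in 12 fits for BCAN and 13 for SDCBP of 17 with 1 library left out, and without bloom 5, 6 and 9 both were lost. Of 6 tested genes set beside GPR17, G protein-coupled receptors of glia and enzymes of leukotriene synthesis, 1 fell and 0 rose, with a median of 0.16. It was ADRA1A, an adrenergic receptor, at 0, 1.25 and 3.23 in bloom dolphins and at 1.87, 3.84 and 7.51 in non-bloom dolphins (log2 change -1.19, SE 0.29, adjusted p = 0.0305, limma; 0.0477 by edgeR), and its call was lost in 7 of the 17 fits and without bloom 5, 6 and 9 (adjusted p = 0.0809). P2RY12, a purine receptor related to GPR17, had a log2 change of -0.90 (adjusted p = 0.127), and ALOX5AP, which serves leukotriene synthesis, one of 0.75 (adjusted p = 0.142). The lists share genes, so their counts are not independent: TNR, VCAN and CSPG5 stand in both the precursor and the proteoglycan list, MYRF in the committed and the factor list, GPR37 in 3 lists, and FGFR3, PDGFRB and P2RY12 also in lists of other cells.

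**Figure D3:**
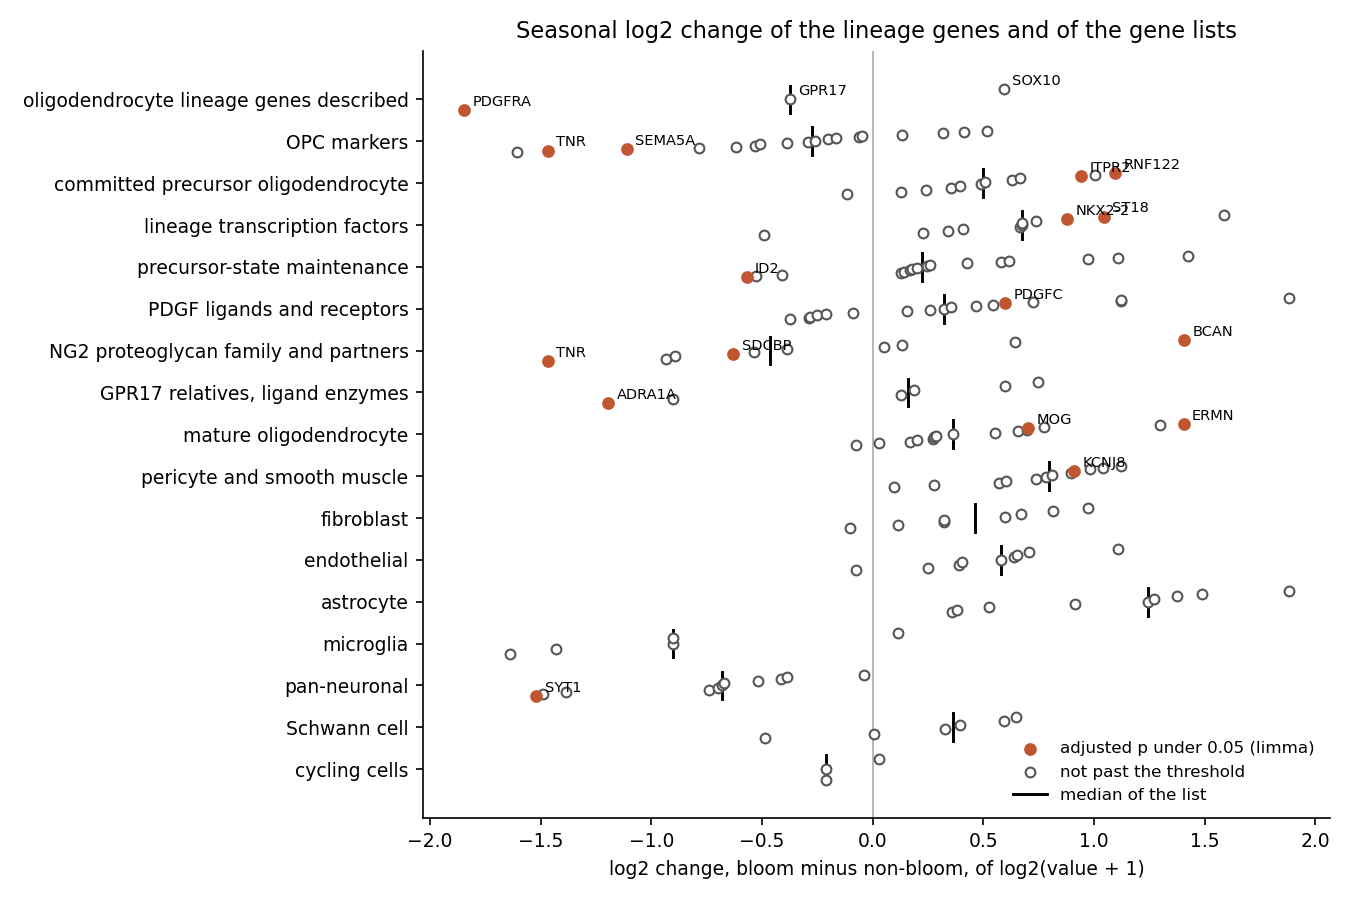
Log2 change, bloom minus non-bloom on the log2(value + 1) scale, of PDGFRA, GPR17, SOX10 and every tested gene of each list; filled points passed an adjusted p of 0.05 in limma and black lines are list medians. PDGFRA, at -1.84, lies left of the other precursor markers. Most committed precursor, lineage factor and mature oligodendrocyte genes have positive changes, as do most pericyte, astrocyte, endothelial and fibroblast markers.

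Mature oligodendrocyte genes had mostly positive changes beside the lower PDGFRA. Of 15 tested 2 rose, ERMN and MOG, 0 fell, and 14 changes were positive. The median log2 change was 0.36, or 0.59 without bloom 5, 6 and 9. Positive changes were not particular to the oligodendrocyte lists. They were found in 12 of 12 pericyte and smooth muscle markers and 9 of 9 astrocyte markers. The same held for 8 of 9 endothelial and 7 of 8 fibroblast markers, but for 0 of 11 pan-neuronal and 1 of 5 microglia markers. ERMN, a cytoskeletal protein of myelin, was at 55.7, 113 and 132 (lowest, median, highest) in bloom dolphins and at 19.7, 41.6 and 99.2 in non-bloom dolphins (log2 change 1.41, SE 0.30, adjusted p = 0.0232, limma; 0.0305 by edgeR). MOG was at 64.9, 111 and 163 in bloom dolphins and at 39.1, 69.0 and 141 in non-bloom dolphins (log2 change 0.70, SE 0.21, adjusted p = 0.0480, limma; 0.0577 by edgeR). Without bloom 5, 6 and 9 neither passed (adjusted p = 0.0537 for ERMN and 0.0565 for MOG), while the 17 fits that each left out 1 library lost ERMN in 3 and MOG in 12. OPALIN, a membrane protein of myelin, had a log2 change of 0.78 (adjusted p = 0.0522). The summed level of the 15 genes ran from 5413 to 20579 in bloom libraries, where bloom 5, 6 and 9 held the highest sums, and from 2195 to 9760 in non-bloom libraries. MBP, myelin basic protein, made up most of those 3 sums, with 16198 in bloom 5, 15918 in bloom 6 and 11377 in bloom 9. Bloom 5 was the lowest of all 17 libraries in 7 of the 15 genes, among them MAG at 61.5 and CLDN11 at 8.56.

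Markers of fibroblasts and Schwann cells, which express PDGFRA and SOX10 respectively, and of pericytes and smooth muscle were set beside these results. The part of these cells in the results was not tested. The summed level of 8 fibroblast markers was 15.2, 47.4 and 74.9 (lowest, median, highest) in bloom libraries and 11.5, 17.2 and 89.5 in non-bloom libraries. The highest non-bloom sums, 89.5, 51.5 and 46.5, were those of non-bloom 7, 3 and 8, which had PDGFRA values of 41.2, 33.5 and 24.9, and the other 5 non-bloom sums lay between 11.5 and 17.3. Bloom 4, with a PDGFRA value of 0.537, had the lowest bloom sum. Some other libraries paired differently. Non-bloom 1 had a PDGFRA value of 40.6 with a sum of 17.1. Bloom 6, with the lowest PDGFRA value, 0.363, had a sum of 56.8. Bloom 1, with the highest bloom sum, had a PDGFRA value of 11.0. The median rho of PDGFRA with the 8 markers was 0.16 over 14 libraries, without bloom 5, 6 and 9, and 0.02 over 17. None of the 8 passed by limma or edgeR. By limma 0 of the 8 had an unadjusted p under 0.05, against 35.4% of all genes tested. COL1A2, a chain of type I collagen, had a log2 change of 0.97 (adjusted p = 0.156, limma). COL1A1, COL3A1 and COL6A3 were at 0 in at least 1 library. Of 12 pericyte and smooth muscle markers KCNJ8 rose, with a log2 change of 0.91 (adjusted p = 0.0344, lost in 9 of 17 fits with 1 library left out and, at 0.102, without bloom 5, 6 and 9), 0 fell, and their sums were 109, 233 and 400 in bloom and 63.1, 153 and 365 in non-bloom libraries. Among 6 Schwann cell markers, SOX10 included, 0 passed by either test and 1 had an unadjusted p under 0.05. It was PMP22, a peripheral myelin protein also made by other cells, with a log2 change of 0.65 (adjusted p = 0.111), and it passed without bloom 5, 6 and 9 (adjusted p = 0.0212).

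Markers of neurons, vessels, astrocytes and microglia were also read by season and by animal. Of 11 pan-neuronal markers SYT1, a synaptic vesicle protein, fell (log2 change -1.52, adjusted p = 0.0365, limma, lost in 10 of 17 fits with 1 library left out, and -0.82 without bloom 5, 6 and 9, adjusted p = 0.0307, limma). Of the 11 markers 0 rose and all had negative changes, with a median of -0.68, or -0.35 without bloom 5, 6 and 9. With their mean level as a covariate the log2 change of PDGFRA was -1.39 (SE 0.60, adjusted p = 0.563, limma), in a fit where 3 genes passed in all. That covariate was itself lower in the bloom season (correlation -0.57), so the fit cannot fully separate it from season. Counts at an unadjusted p under 0.05 stand beside 35.4% of all genes tested. None of 9 astrocyte markers passed by limma, and 3 were higher by edgeR and 3 at an unadjusted p under 0.05. Their median log2 change was 1.24, or 0.61 without bloom 5, 6 and 9. None of 9 endothelial markers passed by limma, while KDR was called higher by edgeR (log2 change 1.11 by limma, adjusted p = 0.0585) and 1 had an unadjusted p under 0.05. The summed level of 7 microglia markers was 258, 162 and 88.1 in non-bloom 3, 7 and 8 and at most 37.8 in the other 14 libraries. Those 3 animals were among the 4 non-bloom dolphins with the highest PDGFRA, at 33.5, 41.2 and 24.9, while the fourth, non-bloom 1, had a PDGFRA value of 40.6 with a microglia sum of 18.0. None of 5 microglia markers passed by limma, CSF1R was lower by edgeR and 1, P2RY12, had an unadjusted p under 0.05, and AIF1, CX3CR1, P2RY12, C1QB and TREM2 were at 0 in at least 1 library. Among 8 markers of dividing cells, MKI67, TOP2A, CCNB1, CDK1, BUB1 and AURKB were at 0 in at least 1 library each, and of the 3 that could be tested 0 passed by limma or edgeR, 0 had an unadjusted p under 0.05, and MCM2 had a log2 change of -0.21 (adjusted p = 0.433).

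**Figure D4:**
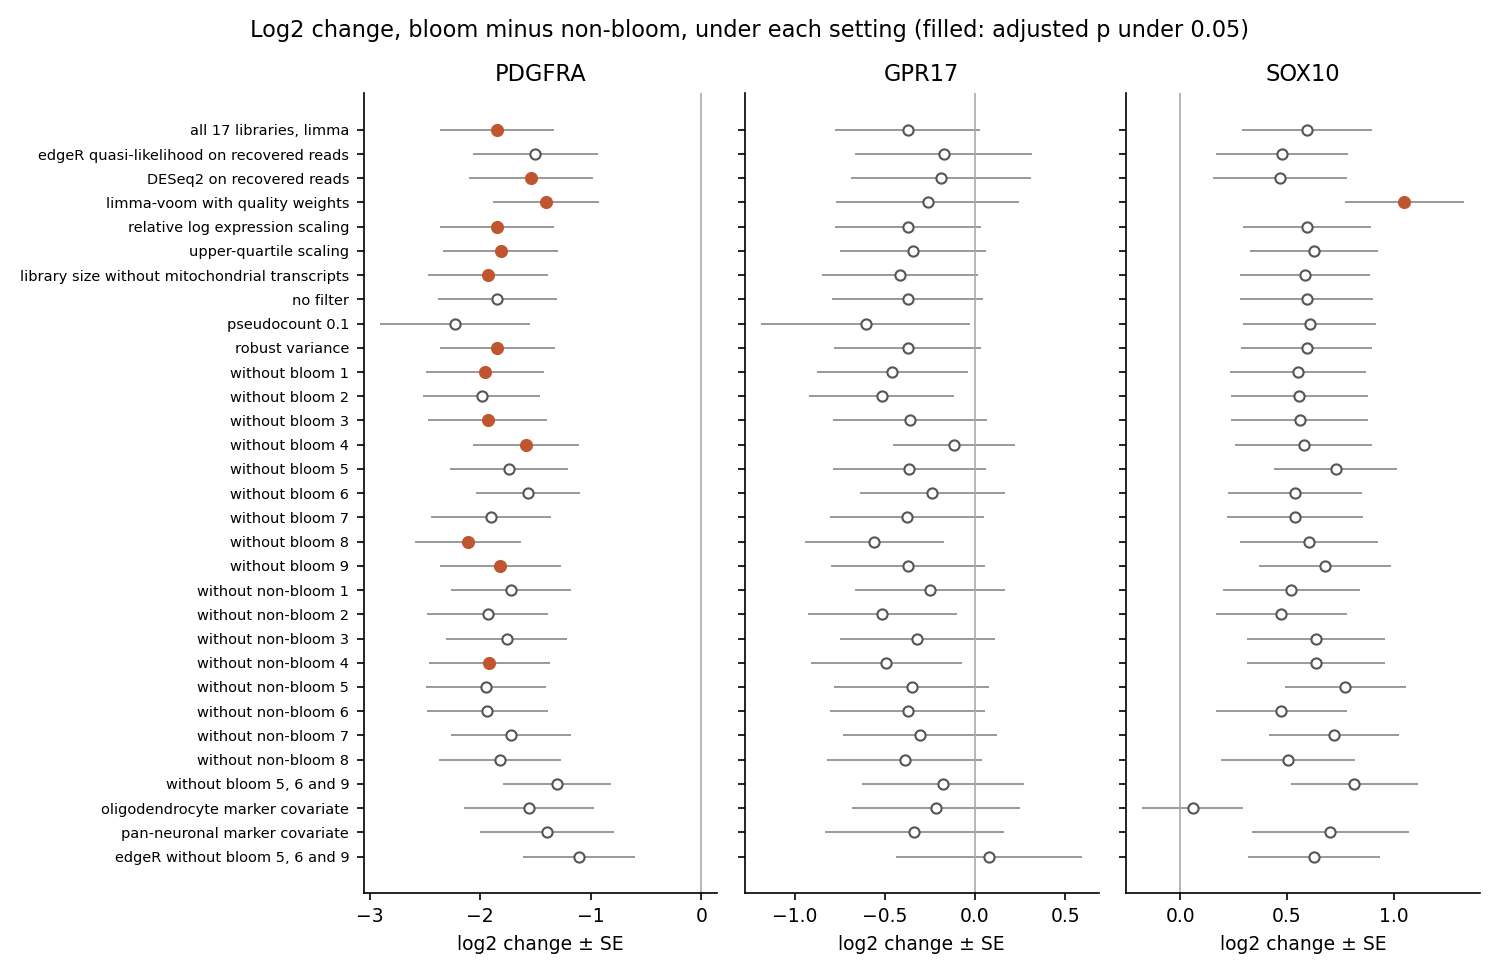
Log2 change ± SE, bloom minus non-bloom, of PDGFRA, GPR17 and SOX10 with all 17 libraries and under each of 30 other settings; filled points passed an adjusted p of 0.05. PDGFRA is negative throughout, from -2.23 to -1.10, but passes in 12 of the 30; SOX10 is positive throughout and passes in 1.

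In the files PDGFRA (ENSTTRG00000012375) lies on scaffold_89433 from 36168 to 62531, SOX10 (ENSTTRG00000004818) on GeneScaffold_482 from 378487 to 387463, and GPR17 (ENSTTRG00000011610) on GeneScaffold_919 from 302488 to 304328. All 3 are annotated as protein coding. No source used here names the genome build.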

How the data were processed

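Per the labels' protocols, mRNA libraries were made by PCR from total RNA of frozen cortex. Trim Galore 0.6.1 was named for this series, with STAR 2.5.2a, per the submitters' processing notes. Which tool counted reads, and on which build and annotation, is stated in no source used here. The deposited signal is CPM with scaled library sizes, read from the values: 100% of nonzero values were whole multiples of 1 read within 0.01. Genes were filtered with edgeR's filterByExpr (minimum count 10, minimum total 15), leaving 13548. Since the values are normalised, season was tested, as the only term, with limma-trend on log2(value + 1), at an adjusted p under 0.05. Exact permutation tests covered single genes. Alternatives were edgeR, DESeq2, limma-voom, other scalings, filters and pseudocounts, 2 marker covariates and leaving out libraries. edgeR without bloom 5, 6 and 9 was added after seeing the data. The test was checked on simulated counts. Named genes are the lineage genes, the 3 smallest p in each of 8 lists of precursor, committed, transcription factor, maintenance, PDGF, NG2, GPR17 and mature oligodendrocyte genes and the smallest in each of 8 lists for other cells, and the 3 most alike genes; passing genes and a few others were named after their values were seen. Genes and lists were chosen with earlier results of these data known. The software was edgeR 4.0.16, DESeq2 1.42.0 and limma 3.58.1 under R 4.3.3.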

Additional observations from a re-analysis of the deposited data

How the results depend on the processing

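No paired analysis was possible because the labels number each dolphin once and pair none across seasons. The number of genes changed was 1241, and it was 3170 with DESeq2, 4123 with limma-voom and quality weights, 560 with no filter, 320 without bloom 5, 6 and 9, 228 with edgeR without those libraries, 1935 with the oligodendrocyte covariate and 3 with the pan-neuronal covariate. Leaving out 1 library gave 61 to 2895. The share of calls that were higher was 48.8%, and 73.6% with edgeR. PDGFRA was lower in all 30 settings; the count of lineage genes lower was 1, and 0 with edgeR, no filter, a pseudocount of 0.1, either covariate, and without bloom 5, 6 and 9 by limma or edgeR, and 0 to 1 with 1 library left out. The count of lineage genes higher was 0, and 1 with limma-voom, where SOX10 passed; it stayed 0 with any 1 library left out. The adjusted p of PDGFRA ran from 0.0184 to 0.563. The exact permutation difference of SOX10 was 0.59, and 0.82 without bloom 5, 6 and 9 (exact p = 0.0383). GPR17 changed sign once, to 0.0783 (adjusted p = 0.946) by edgeR without bloom 5, 6 and 9. The cause was not tested, except that fits on fewer libraries hold fewer samples. In bloom 5, 6 and 9 a value of 3 reads was 0.597, 0.363 and 1.71, which limits low genes such as PDGFRA and GPR17 there.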

Other observations

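Other precursor genes were read in the 2 animals with the lowest PDGFRA, chosen after their values were seen. CACNG4, an accessory subunit of glutamate receptors enriched in precursors, was at 6.45 in bloom 4 and 4.36 in bloom 6, and between 8.76 and 36.5 in the other 15 libraries. VCAN was at 10.2 and 7.15 in those animals, and the only other library under 12 was bloom 5, at 7.96. Of 19 other precursor markers with a row, 3 in bloom 4 and 10 in bloom 6 were among the 3 lowest of 17 libraries. These counts were not particular to the 2 animals. Bloom 5 had 12 and bloom 9 had 10, while bloom 1 and non-bloom 6 had 5 each. Others were not low there. PTPRZ1 was at 152 in bloom 4 and at 544, the highest of 17, in bloom 6. SOX6 was at 6.91, SOX5 at 14.7 and LUZP2 at 13.6 in bloom 6, while SEMA5A was at 44.1, KCND2 at 46.3 and SMOC1 at 17.0 in bloom 4. CSPG5, a proteoglycan of precursors and neurons, was at 148 and 153, and SOX10 at 64.3 and 81.2. No test was made, since the animals were picked by their values.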
